A study of Homo sapiens with 14 samples.

Results

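The sites described here are adenosines of the DRACH motif that lie inside the first exons of human genes, where levels of N6-methyladenosine (m6A) were measured. DRACH is the short motif in which m6A is mostly found (D is any base but C, R is A or G, the A in the middle can be methylated, and H is any base but G). A site was taken once per chromosome, position and strand if the deposited table called its exon first, if it stood more than 10 nt from the upstream edge of that exon, and if its 5 bases fit the motif. This gave 5126 sites in 2268 genes with 1 first exon each, out of 156317 DRACH sites (3.28%) and 407343 sites of any motif. Within the 10 nt that the rule leaves out, 18 sites had enough reads in CAOV3 cells and averaged 14.2% and 12.7% in the STM3675 libraries against 20.8% and 25.5% in the DMSO libraries. The 18 sites just inside the limit, 11 to 20 nt from the edge, averaged 12.9% and 10.1% in the STM3675 libraries against 15.8% and 19.8% in the DMSO libraries.

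The study treated the ovarian cancer line CAOV3 with 1 uM STM3675, an inhibitor of the methyltransferase METTL3, for 24 h. The comparison group was CAOV3 with the solvent DMSO for 24 h, and the ovarian lines COV644, EFO21 and SKOV3, the lung carcinoma line A549 and the oesophageal squamous line OE21 received DMSO for the same time. Each of the 7 groups had 2 libraries, 14 in all. The labels do not say whether 2 libraries of a group came from separate cultures, so p-values measure the spread between these libraries, which may be technical. Polyadenylated RNA was treated with glyoxal and nitrite (GLORI), which turns unmethylated adenosine into inosine, read as G, and leaves m6A to be read as A. Levels are given as the percent of reads with A at a site, which counts adenosines that escaped conversion as well.

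The total of A and G reads at listed sites was 14047302 to 28663588 per library, of which 165433 to 341801 lay at the first-exon DRACH sites. The median number of reads at 1 of these sites ranged over 13 to 33 between libraries. All sites of the table had at least 20 reads and a fraction of at least 0.25 in at least 1 DMSO library, and 1965 of the 5126 (38.3%) met this in exactly 1. So 2296 sites (44.8%, in 1229 genes) had 20 reads in each of the 4 CAOV3 libraries, and 786 (15.3%, in 460 genes) had them in each of the 12 DMSO libraries. Sites under this limit in every DMSO library are not in the table, and the values below describe listed sites only. Reads at listed sites of TP63, KRT5, KRT6A and SOX2 were 6448 to 134592 in OE21 and at most 1916 in any other group. NKX2-1, a lung marker, had 5 reads in A549 but 669 in COV644 and 402 in OE21, and no other lung marker looked for had a listed site. The ovarian markers were mixed. With DMSO, PAX8 had 753 to 14292 reads in the ovarian lines, 749 in OE21 and 132 in A549. MSLN had 504 to 48379 in the ovarian lines and at most 67 in the others. EPCAM had 709 to 16181 in the ovarian lines, 4861 in OE21 and 158 in A549. WT1 was highest in A549 with 388 reads and had 1 in CAOV3, and MUC16 had no listed site.

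METTL3 and its partner METTL14 methylate adenosines in nascent messenger RNA. Exon junction complexes, which are laid down just upstream of each splice junction, are known to keep the methyltransferase off nearby RNA, so that m6A accumulates in long internal exons and in last exons. A first exon has a splice junction at its downstream end only, since its upstream edge is the capped start of the transcript. The distance to the exon end is therefore the distance to the only junction, and the distance to the exon start is the distance to the cap. Both are counted in nucleotides (nt), with 0 for the edge base itself.

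The first exons that hold these sites had a median length of 390 nt, and the median site lay in an exon of 715 nt, because long exons held several sites. In 1373 exons there was 1 site, while 71 exons with 10 or more held 1124 sites. Sites lay 2 to 6792 nt from the exon end, with a median of 246 nt, and 11 to 7186 nt from the exon start, with a median of 373 nt. GGACT was the most frequent motif with 1260 sites (24.6%, against 15.2% in internal exons), followed by GGACC with 761 and GGACA with 676. GGACT sites averaged 49.0% over the 6 lines with DMSO and TGACC sites 13.6%.

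To show what such sites look like, the following 21-base windows are from RefSeq (GRCh38.p14), written 5′ to 3′ with the DRACH motif in capitals. They cover sites with 20 reads in all 14 libraries that lie close to the start of a first exon or far inside one. The promoter windows of RefSeq held 225 of the sites under the same gene symbol, and the motif of the table was found at the site in all 225.
CFAP298, chromosome 21, position 32612362, minus strand, 15 nt from the exon start: gggattccGGACTgtgagcgg
RPS10, chromosome 6, position 34426048, minus strand, 21 nt from the exon start: ccggtaccGGACCctgcagcc
CENPW, chromosome 6, position 126340145, plus strand, 30 nt from the exon start: gaacgttcGGACTgaggtttt
SNAPIN, chromosome 1, position 153658734, plus strand, 31 nt from the exon start: gggcttcaGGACAattcgtga
G6PC3, chromosome 17, position 44070913, plus strand, 178 nt from the exon start: cgttgcctGGACTctggtttc
RNF111, chromosome 15, position 58987914, plus strand, 251 nt from the exon start: gcggtgacAGACActgttctt
RASA1, chromosome 5, position 87268830, plus strand, 947 nt from the exon start: gcttgctgAGACTctcgggcc
SNX33, chromosome 15, position 75648918, plus strand, 1006 nt from the exon start: tgggccatGGACAttgctttg
SNX33, chromosome 15, position 75649031, plus strand, 1119 nt from the exon start: gcattcttGGACTgccttgtg

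The same GGACT letters carried very different levels. The CFAP298 site, 15 nt from the start, had 6.94% and 8.63% in the STM3675 libraries of CAOV3 against 21.8% and 25.5% in the DMSO libraries, and 22.5% ± 3.9 over the 6 lines (SD, n = 6). The CENPW site, in the gene of a centromere protein, had 6.35% and 8.85% with STM3675 against 23.7% and 22.6% with DMSO. The second SNX33 site printed had 29.4% and 32.7% with STM3675 against 92.5% and 88.5% with DMSO, and the groups did not overlap at any of the 3 sites. All 3 sites fell with STM3675 (adjusted p = 1.4e-09, 0.010 and 2.5e-32, quasi-binomial model over all 185923 sites tested). The CENPW call was lost when any 1 of the 4 libraries was left out (adjusted p between 0.072 and 0.125). The RPS10 site, in an exon of 38 nt, had 18.9% and 24.9% with STM3675 against 15.6% and 26.2% with DMSO, where the groups overlap. The SNAPIN site averaged 44.0% in COV644 and between 3.96% and 16.7% in the other 5 lines. The SNX33 windows lie within the RefSeq promoter window although the table places them 1006 and 1119 nt inside the exon, so the table and RefSeq put the start of that gene in different places. Of 1818 genes matched to RefSeq, 1524 (83.8%) had an exon start within 50 nt of the RefSeq start.

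With STM3675, first-exon DRACH sites lost most of their m6A in CAOV3. The mean over 2296 sites was 13.07% and 13.14% in the STM3675 libraries against 38.5% and 39.2% in the DMSO libraries. That is 13.1% ± 0.047 with STM3675 and 38.9% ± 0.50 with DMSO (SD, n = 2 each), a difference of -25.8 percentage points and a ratio of 0.337. Both STM3675 libraries were below both DMSO libraries, which in an exact permutation test (two-sided) of 2 against 2 gives p = 0.333, the smallest p this design allows. Per site, 1282 of 2296 (55.8%) fell and 1 rose at an adjusted p under 0.05, where over all sites tested 35.2% fell and 0.309% rose. Both STM3675 libraries lay below both DMSO libraries at 1663 sites (72.4%, against 49.6% over all sites tested), and above both at 72 (3.14%, against 8.24%). Leaving out STM3675 replicate 1, 828 sites fell. A site could be listed through the CAOV3 DMSO libraries alone, which favours a high DMSO level in this test. Of the 2022 sites that another line also listed, 1221 fell (60.4%, against 39.5% over all sites so chosen) and 5 rose (background 0.644%), and they averaged 13.3% with STM3675 against 40.2% with DMSO.

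How many fell followed the level with DMSO. Of sites under 25% with DMSO, 152 of 1008 fell. Between 25% and 50% it was 470 of 627, between 50% and 75% it was 312 of 313, and from 75% up all 348 fell. Since the same DMSO libraries set these classes and the test, the classes were also formed from the other 5 lines. In sites under 25% in those lines, CAOV3 had 11.1% with STM3675 against 18.9% with DMSO (345 sites). In sites of 50% to 75% it had 11.3% with STM3675 against 65.1% with DMSO (92 sites). In sites of 90% and over it had 29.7% ± 0.55 with STM3675 against 96.1% ± 0.60 with DMSO (SD, n = 2 each, 63 sites). The level left with STM3675 was between 10.8% and 11.3% in the classes up to 75%, and higher above them. The median distance to the exon end was 484 nt in the highest class and 117 nt in the lowest. Sites without a DRACH motif in first exons, which include adenosines that escaped conversion, had a median of 11.5% in both STM3675 libraries and of 13.3% and 13.2% in the DMSO libraries. They are not a pure background. In exons over 800 nt they averaged 11.4% with STM3675 against 19.3% with DMSO, and 154 of 905 (17.0%) fell, while 1.79% fell in exons of at most 200 nt.

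In internal exons, 10857 of 18705 sites (58.0%) fell, and in last exons 38591 of 47149 (81.8%). First-exon sites were at 13.1% with STM3675, against 11.1% for internal-exon sites, a gap of 2.04 points ± 0.023 (SD, n = 2 libraries). Sites without the motif had medians of 11.5% in first exons and of 9.38% and 9.26% in internal exons in the same STM3675 libraries. The values of the DRACH sites are means, so the 2 gaps are not the same measure. The part of unconverted adenosine in the gap was not tested.

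The 10 largest falls, 1 per gene and with 50 reads in each library, were in DHX32, ABCB6, ZBED6, TSC22D1, CNNM4, PPP1R15B, MEPCE, SLC39A7, CTNND1 and SH2B1. The site of DHX32, a putative RNA helicase, lies on chromosome 10 at position 125880708 (minus strand), 165 nt from the end of a 750 nt exon. It had 6.25% and 10.8% with STM3675 against 92.6% and 98.2% with DMSO (adjusted p = 4.7e-37). ABCB6, a porphyrin transporter, had 10.4% and 6.99% with STM3675 against 94.8% and 92.3% with DMSO at chromosome 2, position 219218553 (minus strand). ZBED6, a transcription factor, had 14.3% and 16.4% with STM3675 against 100.0% in both DMSO libraries at chromosome 1, position 203797219 (plus strand). This gene is described as encoded in a single long exon, but the annotation used here calls that exon first. Here and below, the distance of ZBED6 sites to a junction rests on that annotation. In each of the 10, the libraries of both groups lay far apart, with differences of -86.9 to -81.1 percentage points. The others are the transcriptional regulator TSC22D1, the magnesium transporter CNNM4, the phosphatase subunit PPP1R15B of the integrated stress response, the RNA capping enzyme MEPCE, the zinc transporter SLC39A7, the catenin CTNND1 and the signalling adaptor SH2B1. The CTNND1 site lies in an exon of 318 nt, 99 nt from its end, and had 9.61% and 10.8% with STM3675 against 90.4% and 93.6% with DMSO. At MEPCE, the most deeply read of them together with CTNND1 (347 to 1071 reads), the level was 12.98% and 13.7% with STM3675 against 94.0% and 97.4% with DMSO.

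Few strongly methylated sites kept their m6A. Among 292 sites at 50% or more with DMSO and 50 reads in each library, the ratio of the STM3675 to the DMSO level had a median of 0.190 (quartiles 0.140 and 0.233), and 7 exceeded 0.5. The highest ratio, 0.817, was in SLC33A1, the acetyl-CoA transporter of the endoplasmic reticulum, on chromosome 3 at position 155853542 (minus strand). This site had 78.9% and 80.8% with STM3675 against 97.8% and 97.9% with DMSO. A second SLC33A1 site, at position 155853417 of the same 1205 nt exon, had 71.6% and 72.6% with STM3675 against 97.0% and 96.8% with DMSO. A further site of that exon, at position 155853675, had 9.46% and 9.02% with STM3675 against 33.8% and 43.7% with DMSO, so sites of 1 exon differed widely. MAN1A2, a Golgi mannosidase, had 79.4% and 67.8% with STM3675 against 93.6% and 97.6% with DMSO. CELSR2 and PCDH7, both large cadherins, had 71.1% to 76.4% with STM3675 against 96.6% to 100.0% with DMSO at 1 site each. All of these sites still fell (adjusted p between 2.7e-19 and 7.6e-08), and their groups did not overlap. The MAN1A2 call was lost without STM3675 replicate 2 (adjusted p = 0.060).

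The only site that rose was in MAPK14, which encodes the p38 alpha kinase, on chromosome 6 at position 36028203 (plus strand), and it is named for being the only one. It had 12.2% and 28.3% with STM3675 against 2.50% and 3.33% with DMSO at 30 to 60 reads (adjusted p = 0.011, and 0.109 with limma). This call was lost when any 1 of the 4 libraries was left out (adjusted p between 0.051 and 0.307), and no site rose with the replicate block. The count of sites that rose was between 0 and 5 under other settings.

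**Figure D1:**
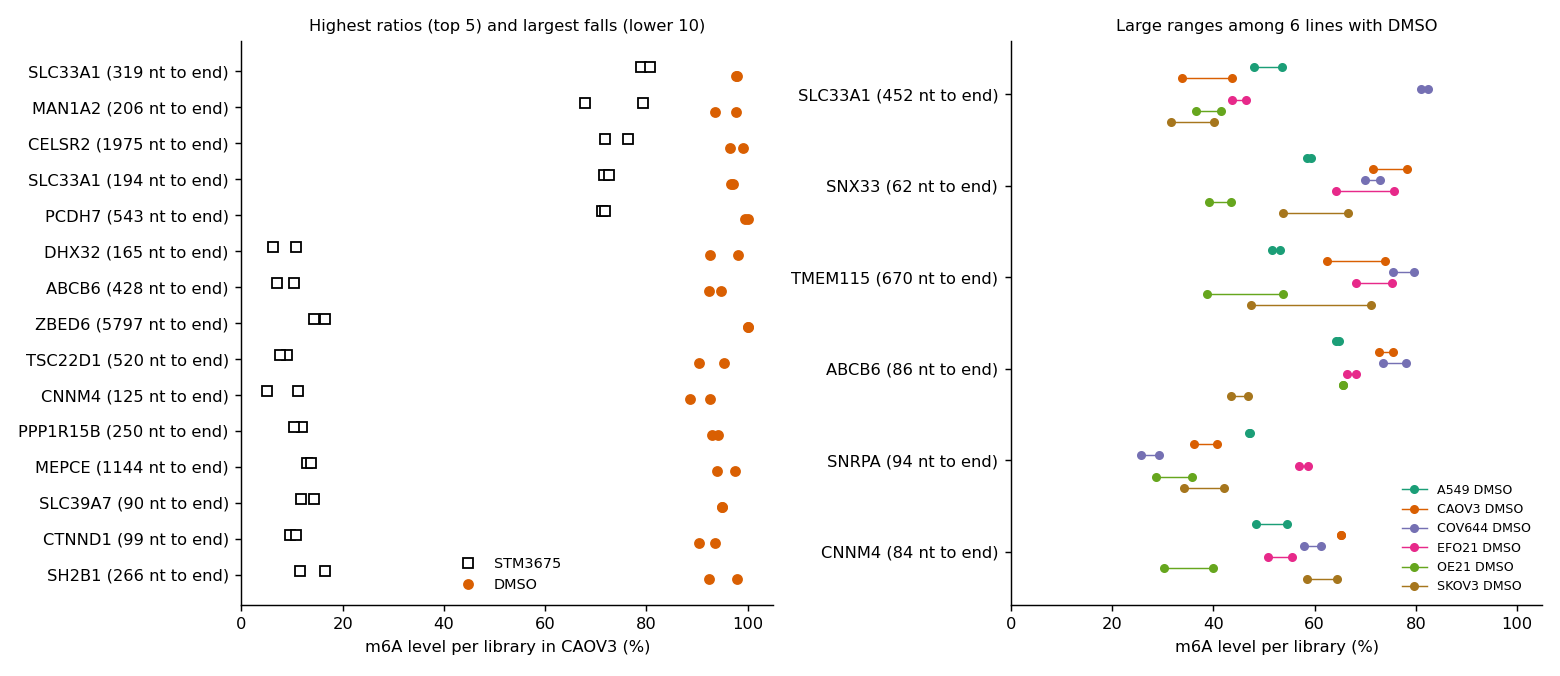
m6A level (% of reads with A) per library at named first-exon sites. Left, CAOV3 with STM3675 (open squares) and DMSO (filled circles), 2 libraries each: the 5 highest ratios keep 67.8% to 80.8% with STM3675, and the 10 largest falls have at most 16.5%. Right, 6 of the 8 sites whose level ranged most widely over the 6 lines with DMSO, each line drawn as 2 libraries joined by a line.

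The level of first-exon sites was higher the longer the exon. Over the 6 lines with DMSO it averaged 15.7% ± 4.1 in exons of at most 200 nt, 24.9% ± 2.8 above that and up to 400 nt, 38.1% ± 2.6 above that and up to 800 nt, and 53.3% ± 3.6 over 800 nt (SD, n = 6 lines, with 85, 148, 210 and 343 sites). In GGACT sites alone the steps were larger, with 77.9% in exons over 800 nt and 17.5% in those of at most 200 nt. Sites over 400 nt exon length exceeded those in exons of at most 200 nt by 31.8 points ± 4.4, 47.5% against 15.7%, in 6 of 6 lines. The exact sign-flip test (two-sided) over 6 lines gave p = 0.03125, the smallest it allows, and the same after adjustment over the 7 position comparisons made. The lines share the same sites. Here and below, this test and the SD over lines therefore speak of the lines only, not of the spread between sites. With each exon counted once, the difference was 26.0 points. Sites without the motif in first exons, whether or not the exon also held a DRACH site, averaged 19.3% in the longest class and 11.9% in the shortest, a smaller step.

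With STM3675 this dependence nearly vanished. In the 4 classes of exon length, from short to long, CAOV3 had 12.2% to 12.3%, 12.9% to 13.1%, 11.92% to 11.97% and 14.2% to 14.3% in the STM3675 libraries. The DMSO libraries had 17.3% to 18.5%, 25.0% to 25.5%, 37.3% to 37.7% and 54.2% to 55.1% in the same sites. The share of sites that fell was 14.6%, 31.8%, 59.7% and 81.1%. The long-minus-short difference was 1.04 points ± 0.077 with STM3675 and 29.9 points ± 0.38 with DMSO (SD, n = 2 libraries each).

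**Figure D2:**
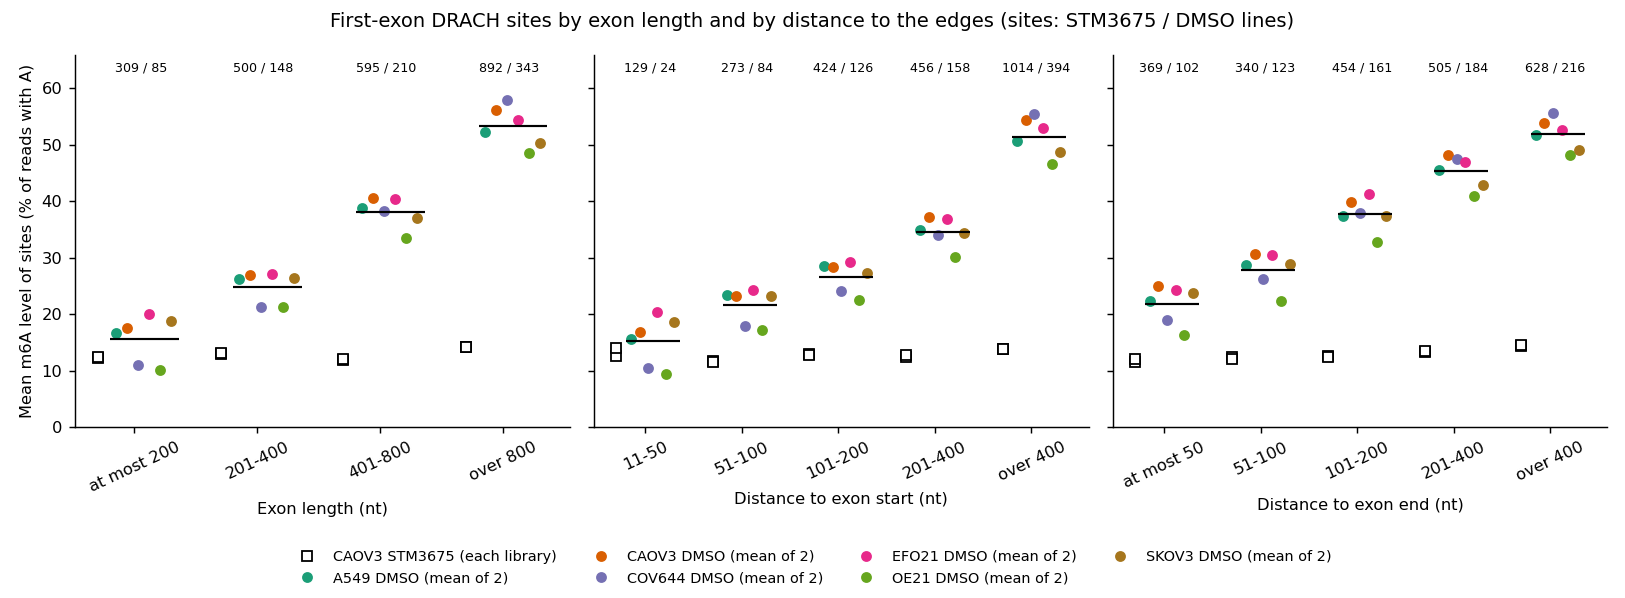
Mean m6A level (% of reads with A) of first-exon DRACH sites by exon length, distance to exon start and distance to exon end. Open squares are the STM3675 libraries of CAOV3, filled circles the means of 2 DMSO libraries per line, and bars the mean of 6 lines, and the numbers at the top count the sites with STM3675 and in the lines. The STM3675 squares stay between 11.6% and 14.6%, while the bars of the lines reach 53.3%, 51.5% and 51.9%.

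Sites were also more methylated the farther they stood from the exon end. The mean over 6 lines was 21.8% ± 3.4 at most 50 nt from the end, 27.9% ± 3.1 from there to 100 nt, 37.8% ± 2.9 from there to 200 nt, 45.3% ± 2.8 from there to 400 nt and 51.9% ± 2.8 beyond (SD, n = 6 lines, with 102, 123, 161, 184 and 216 sites). Sites over 200 nt from the end exceeded those within 100 nt by 23.7 points ± 3.1, 48.9% against 25.1%, and did so in 6 of 6 lines (exact sign-flip test, p = 0.03125). In CAOV3 the difference was 2.00 points ± 0.094 with STM3675 and 23.6 points ± 0.073 with DMSO (SD, n = 2 libraries each).

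Within the same exon this difference was not detected over the 6 lines. In the 31 first exons that held well-read sites in both places, the sites over 200 nt from the end averaged 45.2% and those within 100 nt averaged 45.3%. The mean difference was -0.14 points ± 1.7 (SD, n = 6 lines, exact sign-flip test, p = 0.781), and the far sites were higher in 13 of the 31 exons. In the 102 exons with sites in both places in the CAOV3 libraries, the difference was 1.05 points ± 0.0068 with STM3675 and 3.56 points ± 0.88 with DMSO (SD, n = 2 libraries each), and with DMSO the far sites were higher in 55 exons. In 233 internal exons the far sites were higher by 9.22 points ± 1.8 over the 6 lines (n = 6), in 146 exons. The difference of first exons minus that of internal exons was -9.36 points ± 0.65, negative in 6 of 6 lines (exact sign-flip test, p = 0.03125, added after these values were seen). In CAOV3 with DMSO the 2 kinds lay closer at these distances, with 3.56 points in the 102 first exons and 6.92 points ± 0.21 in 606 internal exons. They lay farther apart for sites over 400 nt against at most 50 nt from the end. There CAOV3 with DMSO had -4.02 points ± 0.55 in 23 first exons and 16.3 points ± 0.0087 in 140 internal exons. Over the 6 lines the values were 3.13 points ± 2.3 in 5 first exons and 13.1 points ± 3.5 in 50 internal exons. Without pairing by exon, over all sites in first exons over 400 nt, the difference between over 200 nt and within 100 nt was 14.8 points. An exon enters the within-exon comparison only with listed sites in both places, each at the listing fraction of 0.25 in some DMSO library. The within-exon values therefore describe exons with listed sites in both places and no others. The same rule held for internal exons, and the part of the listing in these values was not tested.

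The level was also higher the farther a site stood from the exon start. The mean over 6 lines was 15.2% ± 4.4 at 11 to 50 nt from the start, 21.6% ± 3.2 from there to 100 nt, 26.7% ± 2.7 from there to 200 nt, 34.6% ± 2.6 from there to 400 nt and 51.5% ± 3.4 beyond (SD, n = 6 lines, with 24, 84, 126, 158 and 394 sites). A comparison added after these values were seen took only sites over 200 nt from the exon end, away from the junction. Those over 200 nt from the start exceeded those within 100 nt by 22.3 points ± 3.6, 52.4% against 30.1% (323 and 34 sites), in 6 of 6 lines (exact sign-flip test, p = 0.03125). Restricted to exons whose start lies within 50 nt of the RefSeq start, it was 17.7 points, and 17.3 points with each exon counted once. The far-minus-near difference from the exon end was 24.0 and 18.7 points under these settings, and the 2 distances were not tested against each other. In CAOV3 the far-minus-near difference from the exon start was 2.73 points ± 0.64 with STM3675 and 25.0 points ± 0.66 with DMSO (SD, n = 2 libraries each). Only 2 exons held sites in both places in all 12 libraries, and 18 did in the CAOV3 libraries, where the difference was 2.27 points ± 2.2 with STM3675 and 5.44 points ± 3.3 with DMSO.

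**Figure D3:**
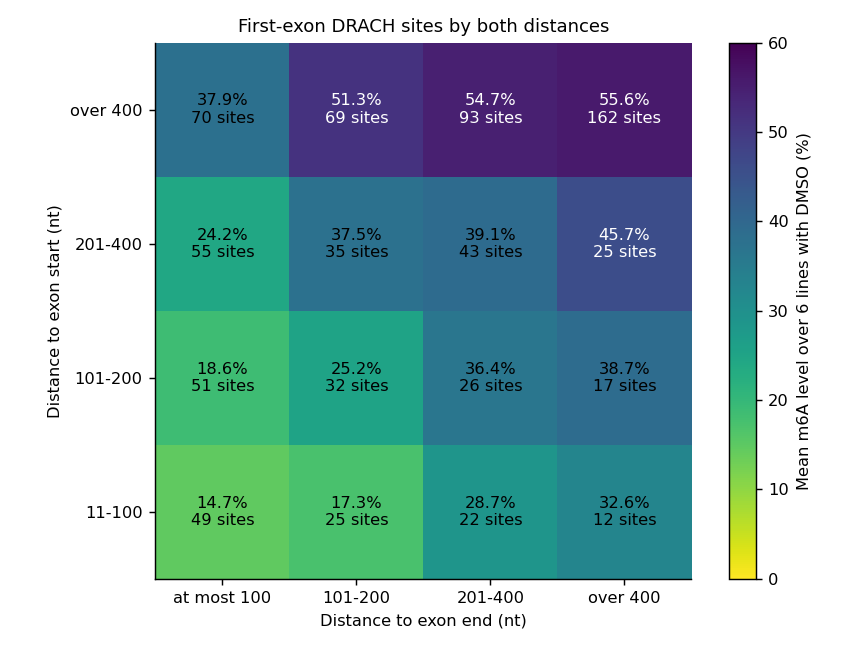
Mean m6A level over 6 lines with DMSO in 16 classes of first-exon sites, by distance to exon end (horizontal, nt) and distance to exon start (vertical, nt), with the number of sites. Levels run between 55.6% far from both edges and 14.7% near both, and each row and each column climbs.

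Both distances were seen together in the grid of levels. Of sites over 400 nt from the start, those over 400 nt from the end averaged 55.6% and those within 100 nt of it 37.9%. Of sites at 11 to 100 nt from the start, the corresponding levels were 32.6%, over 12 sites, and 14.7%. Sites over 200 nt from both edges averaged 52.4% ± 3.2, against 18.5% ± 3.7 for sites within 200 nt of both (SD, n = 6 lines). The number of listed sites went the same way from the start, at 3.82 per kb of exon beyond 400 nt and 1.24 at 11 to 50 nt, counted in 5495 first exons with any listed site. By distance to the end it lay between 2.33 and 2.85 per kb. The median number of reads per listed site was 18.5 beyond 400 nt and also at 11 to 50 nt from the start. Sites too poorly read to be listed do not enter this median, so it does not measure coverage of the exon start. A site was listed only with a fraction of at least 0.25 in a DMSO library, so a lower level by itself lowers the density. The densities are therefore not separate evidence on the levels. They are per kb of exon and not per motif present, and the parts of coverage and motif frequency were not tested.

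Compared with internal exons, the listed sites of first exons had a lower mean level near the upstream edge, although no junction lies there. Among sites 11 to 100 nt from the upstream edge and over 200 nt from the downstream one, first-exon sites averaged 30.1%, against 37.7% in internal exons and 37.6% in last exons. The difference of first exons was -7.67 points ± 2.8 to internal exons and -7.48 points ± 3.9 to last exons, in 6 of 6 lines each (SD, n = 6 lines, exact sign-flip test, p = 0.03125 in both), with 34 sites in first exons. The same 34 sites stand in every line, so these p-values do not measure the spread between sites. With the 24 first-exon sites whose exon begins within 50 nt of the RefSeq start, the differences were smaller, -4.84 points to internal exons and -4.64 points to last exons. Between 100 and 200 nt from the upstream edge the averages were 37.3% in first, 54.1% in internal and 50.1% in last exons, and the ranges of the lines did not overlap (33.6% to 39.8% in first exons, 52.1% to 56.0% in internal exons). Beyond 400 nt the first-exon average of 55.3% stood beside 54.7% in internal exons, where the lines overlapped. In CAOV3, first-exon sites near the upstream edge differed from internal-exon sites by 2.27 points ± 0.74 with STM3675 and by -8.97 points ± 0.43 with DMSO (SD, n = 2 libraries each).

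The downstream edge is a splice junction in both kinds of exon, and there too first-exon sites were lower. Within 100 nt of it and over 200 nt from the start, they averaged 31.9%, against 37.9% in internal exons, a difference of -6.02 points ± 0.79 in 6 of 6 lines (SD, n = 6 lines, exact sign-flip test, p = 0.03125, 125 and 536 sites). Within 50 nt of the junction the averages were 28.1% in first exons and 29.2% in internal exons. At 51 to 100 nt they were 34.3% in first exons and 43.9% in internal exons. Over all positions first-exon sites averaged 39.8% and internal-exon sites 38.6%, a difference of 1.18 points ± 0.99 (exact sign-flip test, p = 0.03125). That small difference turned round to -1.86 points with at least 50 reads and to -3.07 points over 200 nt from both edges, and it was 0.044 points where the first exon began at the RefSeq start.

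**Figure D4:**
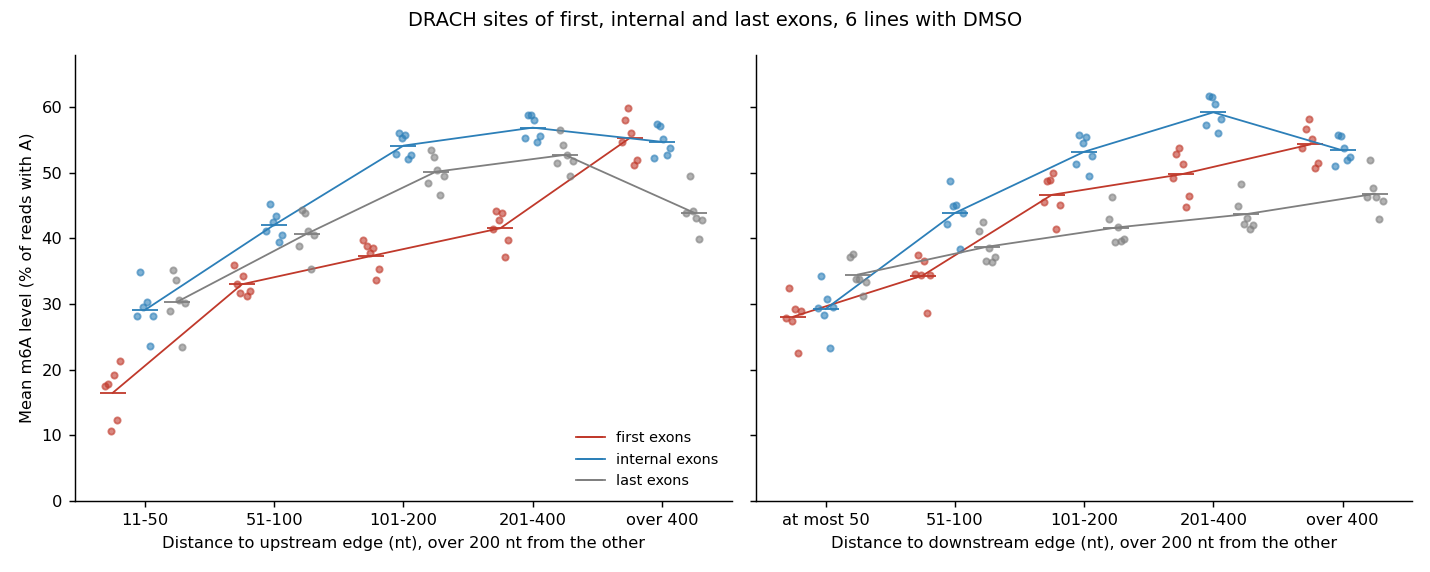
Mean m6A level (% of reads with A) of DRACH sites in first, internal and last exons by distance to the upstream edge (left) and to the downstream edge (right), each over 200 nt from the other edge. Circles are the 6 lines with DMSO and bars their means. First exons lie below internal exons from the upstream edge up to 400 nt, and meet them at 55.3% and 54.7% beyond.

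Single sites stood out against these averages. Of 19 sites with 50 reads in every DMSO library and at most 50 nt from the exon end, the median level was 22.0%. Among the higher ones, KCNK1, a potassium channel, averaged 40.2% at 47 nt from the end, and ITM2B and GOLPH3 had 35.3% and 32.5% at 7 nt. Of 53 such sites over 400 nt from the end, with a median of 41.0%, the highest were in PATZ1 (96.0%), PPP1R15B (95.6%), SH2B1 (94.6%) and MCM3AP (93.8%). PATZ1, a zinc finger transcription factor, had 25.2% and 27.3% with STM3675 against 97.6% and 97.9% with DMSO. MCM3AP, a factor of messenger RNA export, had 38.1% and 42.2% with STM3675 against 96.3% and 93.9% with DMSO.

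Within 1 long first exon the levels were anything but uniform. CELSR2, whose 3851 nt first exon on chromosome 1 (109249539 to 109253389, plus strand) held 43 sites, had 29 with enough reads, of which 26 fell. Their levels were 4.10% to 74.1% with STM3675 against 19.0% to 97.8% with DMSO. ZBED6 held 43 sites in 7394 nt, of which 16 were tested and 14 fell, with 3.34% to 33.9% with STM3675 against 6.995% to 100.0% with DMSO. PCDH7 held 37 sites in 4228 nt, of which 31 were tested and 29 fell, with 6.81% to 86.1% with STM3675 against 22.3% to 99.8% with DMSO. IRS1, the insulin receptor substrate, held 33 sites and SMCR8, a partner of autophagy regulators, 29, of which 4 of 4 and 3 of 6 tested sites fell.

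**Figure D5:**
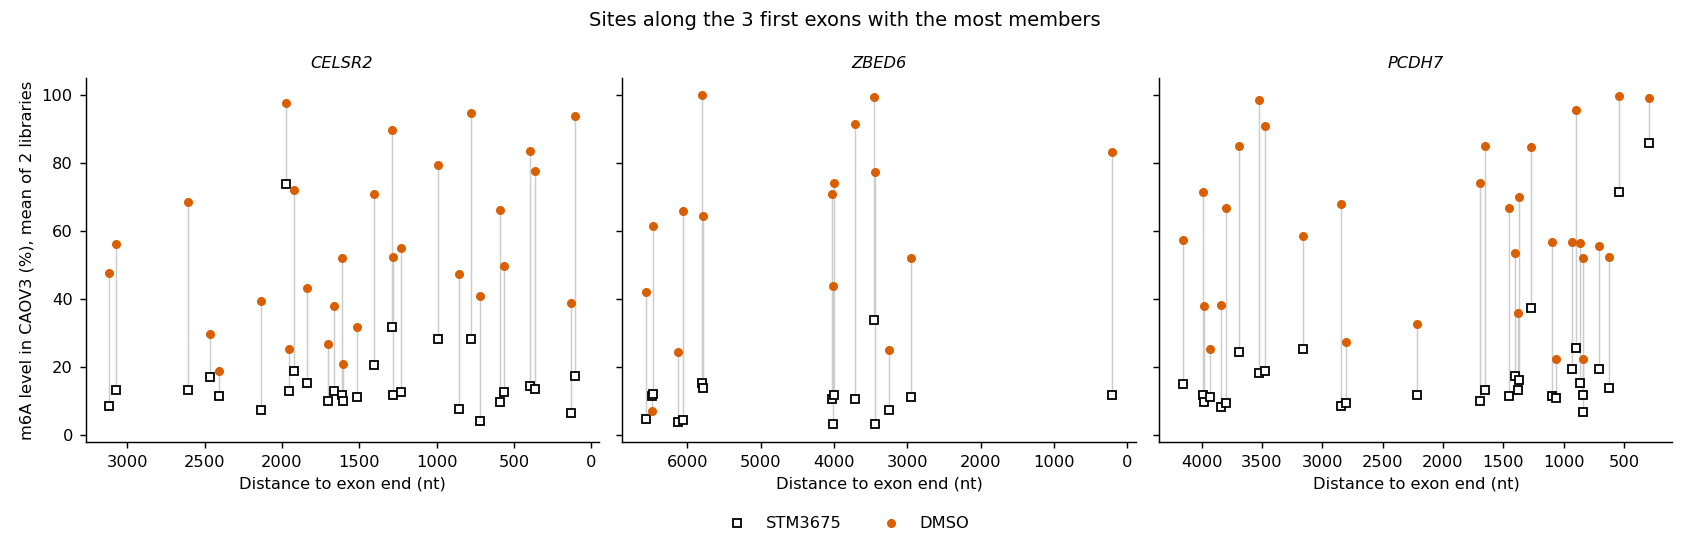
m6A level (%, mean of 2 CAOV3 libraries) at each tested site along the first exons of CELSR2, ZBED6 and PCDH7, by distance to the exon end in nt (the end is at the right). Open squares are STM3675 and filled circles DMSO, joined per site. DMSO levels spread between 6.995% and 100.0%, and STM3675 levels between 3.34% and 86.1%.

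The gene lists were read against all first-exon sites, of which 1282 of 2296 fell with a median difference of -17.7 points, and against all sites tested, with a median of -7.49. Of the m6A machinery, 7 of 8 tested sites in 3 genes fell, with a median of -32.7 points. Its listed sites had a median exon length of 2892 nt, against 715 nt over all first-exon sites. RBM15, which brings the methyltransferase to RNA, had 28.1% and 24.5% with STM3675 against 91.3% and 98.7% with DMSO (chromosome 1, position 110342041, plus strand). ALKBH5, an m6A demethylase, had 10.5% and 8.33% with STM3675 against 45.3% and 49.5% with DMSO at a site 10 nt from its exon end. Its site 153 nt from the end had 9.31% and 7.81% with STM3675 against 13.9% and 14.6% with DMSO and did not pass the test (adjusted p = 0.152). Of the exon junction complex and decay genes, 17 of 20 tested sites in 4 genes fell, with a median of -43.4 points. The listed sites of this group had a median exon length of 1776 nt, which is the length of the SMG8 exon. The part of exon length in these counts was not tested. SMG8, a regulator of nonsense-mediated decay, had 14.9% and 5.68% with STM3675 against 91.5% and 89.4% with DMSO. UPF1, the helicase of that pathway, had 14.3% and 16.0% with STM3675 against 77.8% and 80.5% with DMSO.

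The clustered protocadherins, whose variable first exons are long, held 197 sites in 28 genes, but 12 sites in 2 genes had enough reads, and all 12 fell. PCDHA12 had 20.3% and 26.5% with STM3675 against 100.0% in both DMSO libraries at chromosome 5, position 140875918 (plus strand). Of the developmental transcription factors 22 of 31 tested sites in 20 genes fell, with a median of -30.0 points and a median exon length of 830 nt. KLF4 had 15.6% and 13.9% with STM3675 against 100.0% and 95.2% with DMSO. Of the feedback regulators of signalling 17 of 23 tested sites in 10 genes fell, with a median exon length of 1840 nt. SMAD6, an inhibitor of BMP signalling, had 20.0% and 25.7% with STM3675 against 96.4% and 98.4% with DMSO, and SPRY2, an inhibitor of receptor tyrosine kinase signalling, had 17.1% and 24.3% with STM3675 against 91.2% and 95.3% with DMSO. The chromatin regulators lay in shorter exons, with a median of 468 nt, and 5 of 16 fell with a median of -8.21 points. Among them CHD1 had 17.9% and 20.7% with STM3675 against 77.8% and 96.1% with DMSO, while CBX5 had 4.08% and 10.98% with STM3675 against 7.50% and 6.10% with DMSO and did not pass the test. No site of any of these lists rose.

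The 6 lines with DMSO differed in their mean level over the 786 sites read in all of them. It was 42.3% ± 0.49 in CAOV3, 41.9% ± 0.83 in EFO21, 40.7% ± 0.12 in COV644, 40.0% ± 0.20 in A549, 38.8% ± 0.62 in SKOV3 and 35.2% ± 0.12 in OE21 (SD, n = 2 libraries each). CAOV3 and EFO21 were closer to each other than their own libraries. An exact permutation test over the 10395 ways to pair 12 libraries gave p = 0.00048 for the spread between lines. The lines also differed at sites without the motif, which were taken as a measure of unconverted adenosine. In first exons these had a median of 5.71% in OE21 and 5.81% in COV644 but 12.9% to 15.4% in the other 4. The correction used the median over all sites without the motif, in first exons or not, which was 4.27% in COV644 and 12.7% in SKOV3. After this correction COV644 came highest with 38.1% ± 0.57 and SKOV3 lowest with 29.9% ± 1.1 (permutation p = 1e-04, the smallest the test allows), so the order of the lines depends on the correction. With reads summed over sites the range between the highest and the lowest line was 3.34 points, where it was 7.07 for means of sites, and COV644 was highest. EFO21 was highest with at least 50 reads and also without EFO21 replicate 1, and OE21 was lowest in all of these but the corrected values.

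Per site, 266 of 786 (33.8%) differed among the lines, where over all sites tested 39.5% did, and limma called 59. COV644 was higher than the mean of the other 5 lines at 103 sites (13.1%, against 6.23% over all sites tested) and lower at 83 (10.6%, against 17.8%). OE21 was higher at 4 sites (background 0.775%) and lower at 157 (20.0%, against 25.9%). CAOV3 was higher at 56 sites (7.12%, against 10.9%) and lower at 3 (background 0.581%). A549 was higher at 15 sites and lower at 14 (backgrounds 1.45% and 1.89%). EFO21 was higher at 17 and lower at 2 (1.22% and 1.81%), and SKOV3 was higher at 9 and lower at 32 (1.04% and 2.13%). COV644 and OE21, which have most of the lower calls, are the lines with the lowest medians at sites without the motif. The part of unconverted adenosine in the calls was not tested.

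Among sites with 50 reads in each of the 12 DMSO libraries that differed between lines, the largest range, 45.8 points, was at the SLC33A1 site on chromosome 3, position 155853675. COV644 had 81.0% and 82.5% there, while the other 5 lines lay between 31.6% and 53.5% (adjusted p = 2.3e-12, quasi-binomial model). SNX33, a sorting nexin, had 43.6% and 39.1% in OE21 at 62 nt from the exon end, below the 53.8% to 78.2% of the other lines. ABCB6 had 46.9% and 43.4% in SKOV3 at 86 nt from the end, below the 64.1% to 78.0% of the other lines. SNRPA, a protein of the U1 particle of the spliceosome, had 58.6% and 56.9% in EFO21 and 25.7% and 29.2% in COV644. TMEM115 and CNNM4 had ranges of 31.2 and 30.1 points with OE21 lowest in both. With limma, 5 of these 6 sites were also called, and TMEM115 was not (adjusted p = 0.098).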

How the data were processed

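Fragmented polyadenylated RNA of 14 libraries was treated with glyoxal and nitrite (GLORI). The submitters' processing notes name cutadapt, STAR and the build GRCh38. Tool versions, deduplication and how sites were called are not stated in them. Per site and library, the authors deposited counts of A and G reads (at most 10040) and the fraction of reads with A. Fraction times count was whole within 1e-06 in every library, which gave the A counts. Columns named D were taken for DMSO and columns named T for STM3675, since values of T stand in CAOV3 rows alone. Gene, exon, edges and motif are those of the table.

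Each site with at least 20 reads in every library compared was fitted with a quasi-binomial logistic model, its dispersion moderated over sites as in limma 3.58.1 and not below 1, with Benjamini-Hochberg adjustment over all tested sites (185923 in CAOV3, 68873 over the DMSO lines) and a threshold of 0.05. Adjusted p-values of single sites come from this model, or from limma on fractions where named. Comparisons of position used line means and exact sign-flip tests over 64 sign patterns. The lines share the same sites, so these tests speak of the lines only. The correction for unconverted adenosine took the median of all sites without the motif, in first exons or not, in each library. Scripts ran in Python 3.11.15 and R 4.3.3 and were tested on simulated data. There 100 sites were given a smaller fall and 100 a larger one. The CAOV3 design recovered 22% of the smaller and 50% of the larger falls, with 0 false calls. The design over the lines recovered 75% and 98%, with 20 false calls. A site that was not called, above all in CAOV3, may therefore still have changed. Alternatives were minimum reads of 10 and 50, summed reads, the correction, GGACT only, limma, the replicate block and leaving out each library.

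The members and gene lists were chosen with earlier results of these data known. Named sites are the 10 largest falls, 5 highest ratios, 8 largest line ranges, the 4 highest levels per position class (1 qualified near the exon start, RPS10), the 5 genes with most members and the extremes of each gene list, chromosome 8 left out; 2 of the genes so chosen are not reported here. Replicate numbers did not pair the libraries: same-numbered libraries deviated together with r between -0.041 and 0.050 over 21 pairs of groups. Spike-in probes were not analysed here. Libraries varied beyond counting error (fitted dispersion 1.67 in CAOV3 and 1.71 over the lines, where counting error alone gives 1). Since deduplication is not stated, reads may not be independent molecules.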

Additional observations from a re-analysis of the deposited data

Results flagged for a closer look

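The size of each position difference was itself not the same in the 6 lines, by an exact permutation test over the ways to pair 12 libraries. The far-minus-near difference from the exon end spanned 9.36 points, between 19.6 in SKOV3 and 29.0 in COV644 (adjusted p = 0.00044). The long-minus-short difference spanned 12.95 points, between 26.5 in SKOV3 and 39.4 in COV644 (adjusted p = 0.0034). The far-minus-near difference from the exon start spanned 9.19 points, between 19.2 in SKOV3 and 28.4 in COV644 (adjusted p = 0.0010). Near the upstream edge, the first-minus-internal difference spanned 7.34 points, between -11.5 in CAOV3 and -4.14 in A549, and the first-minus-last difference spanned 9.72 points, between -12.9 in COV644 and -3.22 in A549 (adjusted p = 0.00044 each). Near the downstream edge the span was 2.30 points (-7.31 in CAOV3, -5.01 in A549, adjusted p = 0.036), and over all sites it was 2.20 points (0.14 in SKOV3, 2.34 in A549, adjusted p = 0.0048).

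COV644, which has the largest difference by size in 4 of these 7, had a low level at sites without the motif (a median of 4.27%, against 12.7% in SKOV3). This level was taken as a measure of unconverted adenosine. After correction for this level, the far-minus-near difference from the exon end still spanned 22.5 in SKOV3 to 30.3 in COV644 (permutation p = 0.00096). The long-minus-short difference spanned 30.3 in SKOV3 to 41.2 in COV644 (permutation p = 0.0013). The far-minus-near difference from the exon start then spanned 21.2 in OE21 to 29.7 in COV644 (permutation p = 0.00096), and the first-minus-last difference near the upstream edge -13.5 in COV644 to -3.60 in A549 (permutation p = 0.00038).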

How the results depend on the processing

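Of 193 alternative values for 11 results, 183 kept their direction and their side of the threshold (counts: stayed within 1.5 times). With at least 50 reads, fewer sites were tested, and 675 of 966 fell with STM3675 (69.9%, against 55.8% in the main setting). Among lines 129 of 220 differed (58.6%, against 33.8%). With limma on fractions 59 sites differed among lines; the cause was not tested. Leaving out 1 library, 828 to 1066 sites fell with STM3675, the lowest without STM3675 replicate 1, and 187 to 319 differed among lines. With the replicate block, 1140 sites fell with STM3675 and 266 differed among lines. The libraries of a block share only a number, and the cause of the lower count was not tested. The far-minus-near difference from the exon end was -0.14 points within the same exon. The first-minus-internal difference over all sites was -1.86 points with at least 50 reads, -3.07 over 200 nt from both edges, 0.70 with reads summed (exact p = 0.4375) and 0.044 where exons began at the RefSeq start (exact p = 0.906), and 0.57 to 1.70 with 1 library left out, the lowest without OE21 replicate 1 (exact p = 0.25); the causes were not tested. The mean STM3675 difference stayed between -28.4 and -25.4 points. The within-exon values, the comparison by exon start, each exon counted once, the RefSeq starts and both restrictions by distance were chosen after seeing the data. Long against short exons over 200 nt from the end gave no value, as exons of at most 200 nt have no such site. Depth limits the rest, since 2296 of 5126 sites could be tested in CAOV3 and 786 in all lines, and intervals of counts cover counting error only.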
